A study of Mus musculus with 6 samples.

Results

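The genes described here are Nos1 and 7 genes of the dystrophin glycoprotein complex: Dmd, Utrn, Dag1, Sgca, Sgcb, Sgcd and Sspn. They were chosen by symbol and not by their values, and they are 8 of the 24421 genes counted in each library. The libraries came from bulk RNA-Seq of gastrocnemius-plantaris (GP) muscle, 3 labelled Ctrl and 3 labelled cKO, each a biological replicate from mice of 5 months of age (males, per the methods of the study). Control mice were Net39 fl/fl without Cre, and cKO mice carried HSACreERT2 and Net39 fl/fl, in which a Cre under the human skeletal actin promoter, active in muscle fibers, removes the first exon of Net39 after tamoxifen. Both groups carried floxed alleles and received tamoxifen 3 months before the muscle was taken. The labels give the strain as B6C3F1, which the methods of the study name for the injected zygotes, with later crosses to other mice. The comparison asks how transcripts of the sarcolemmal complex differ between muscle with and without Net39, a protein of the muscle nuclear envelope.

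The targeted gene went against the labels. Levels are given as CPM, the counts of a gene scaled to a library size adjusted by TMM factors. Net39 (listed as Ppapdc3) had 7.92, 7.75 and 5.93 CPM in the Ctrl-labelled libraries and 151, 113 and 138 CPM in the cKO-labelled ones. It was therefore higher in each library labelled cKO, by 18.6-fold (log2 fold change 4.22, SE 0.165, adjusted p = 0.000161 by edgeR's quasi-likelihood test). The study itself reported the opposite direction, less Net39 mRNA in cKO than in control muscle by bulk RNA-Seq. All directions below are given for the labels as deposited, so "higher in the cKO-labelled libraries" also means higher where Net39 was high. Total counts were 33860001 to 38201728 in the Ctrl-labelled libraries, and 39191239 to 48839910 for cKO. Defining markers of skeletal muscle were abundant in all 6 libraries, with summed CPM of the 8 genes shared by all fibers at 68330 to 69526 in the Ctrl-labelled libraries and 76417 to 99050 in the cKO-labelled ones.

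The dystrophin glycoprotein complex joins the cytoskeleton of the muscle fiber to laminin in the matrix around it. Dystrophin binds actin inside the fiber and beta-dystroglycan at the membrane, the sarcoglycans and sarcospan form a tight subcomplex beside dystroglycan, and utrophin can take the place of dystrophin at neuromuscular and myotendinous junctions. Neuronal nitric oxide synthase, the product of Nos1, is held at the sarcolemma by syntrophin and the dystrophin rod, and the nitric oxide it makes relaxes vessels in working muscle. The enzyme is known to be more abundant in fast than in slow fibers.

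All 8 members were found in GENCODE M21 (GRCm38) as protein-coding genes. Nos1 lies on chromosome 5 (117781032 to 117958840, plus strand), Dmd on chromosome X (82948870 to 85206141, plus strand), Utrn on chromosome 10 (12382188 to 12869365, minus strand) and Dag1 on chromosome 9 (108204634 to 108263958, minus strand). Sgca lies on chromosome 11 (94962791 to 94976327, minus strand), Sgcb on chromosome 5 (73632749 to 73647790, minus strand), Sgcd on chromosome 11 (46896253 to 47988969, minus strand) and Sspn on chromosome 6 (145931641 to 145965223, plus strand). Exons of Nos1 share 268 of 11151 bases with the antisense gene Gm26995, and exons of Sspn share 69 of 4996 bases with the antisense gene Sspnos. Whether the counting used strand is not given in the sources used here, so reads over those bases cannot be told apart. For the other 6 members no exon overlap with another gene was found.

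The 250 bases before a start site are shown for Dmd, to which the other members are compared, and for Sspn, the member with the smallest adjusted p among those lower in the cKO-labelled libraries. They are RefSeq windows of GRCm38.p6, written along the coding strand, and capitals mark letters of a muscle promoter motif: the CArG box of serum response factor, the MEF2 box, the MCAT element of TEAD factors (CATTCC) and the E-box of MyoD and related factors (CANNTG), each searched on both strands with no overlap among the matches printed.
Dmd, chrX:82948620-82948869, plus strand: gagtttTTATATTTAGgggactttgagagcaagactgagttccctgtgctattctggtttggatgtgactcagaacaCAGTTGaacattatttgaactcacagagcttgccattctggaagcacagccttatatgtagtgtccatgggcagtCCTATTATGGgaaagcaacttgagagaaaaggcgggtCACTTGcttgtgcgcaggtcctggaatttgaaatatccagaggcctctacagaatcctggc
Sspn, chr6:145933872-145934121, plus strand: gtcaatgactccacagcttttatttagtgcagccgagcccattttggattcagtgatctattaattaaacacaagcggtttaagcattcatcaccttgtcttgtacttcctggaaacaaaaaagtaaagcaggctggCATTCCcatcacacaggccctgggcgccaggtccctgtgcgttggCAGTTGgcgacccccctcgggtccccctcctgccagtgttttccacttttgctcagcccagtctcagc
The Dmd window, before the start of the muscle transcript of dystrophin, held a CArG box 98 bases and a MEF2 box 244 bases before the start, with E-boxes at 173 and 61 bases. The Sspn window held an MCAT element at 113 bases and an E-box at 68 bases before the start. Each of these genes has a further RefSeq window that is not printed. That of Dmd (start at 85048295) held none of these motifs. That of Sspn (start at 145931873) held an MCAT element at 209 bases before the start and no E-box. Over the 32851 windows of RefSeq mouse promoters, each counted with a further 50 bases after the start, 1.63% held a CArG box, 3.19% a MEF2 box, 14.7% an MCAT element and 72.3% an E-box. These matches describe the letters only. No promoter is printed for Nos1, because the RefSeq start used for its window (chromosome 5, 117866839) is the start of an internal exon in 4 of its 7 GENCODE transcripts and lies within 50 bases of the first base of 0 of them.

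Of the 8 members, 1 was higher (Nos1), 2 were lower (Sspn and Utrn) and 5 did not pass an adjusted p of 0.05 in the cKO-labelled libraries. Over the 14180 genes tested in the same fit, 24.4% passed, 12.6% being higher and 11.8% lower, and 6.05% passed with a fold change over 2, which among the members was met by Nos1 alone. The median log2 fold change of the members was -0.23, beside -0.02 over all genes tested (-0.48 and -0.27 with scaling by total counts). The 7 members other than Nos1 lay between -0.42 and 0.23, 5 of them below 0. CPM of the groups did not overlap for 6 of the 8 members, where 43.9% of all genes tested did not overlap. With 3 libraries against 3, an exact two-sided permutation test cannot give a p below 0.1, and the differences in CPM of those 6 members each reached that smallest p.

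**Figure D1:**
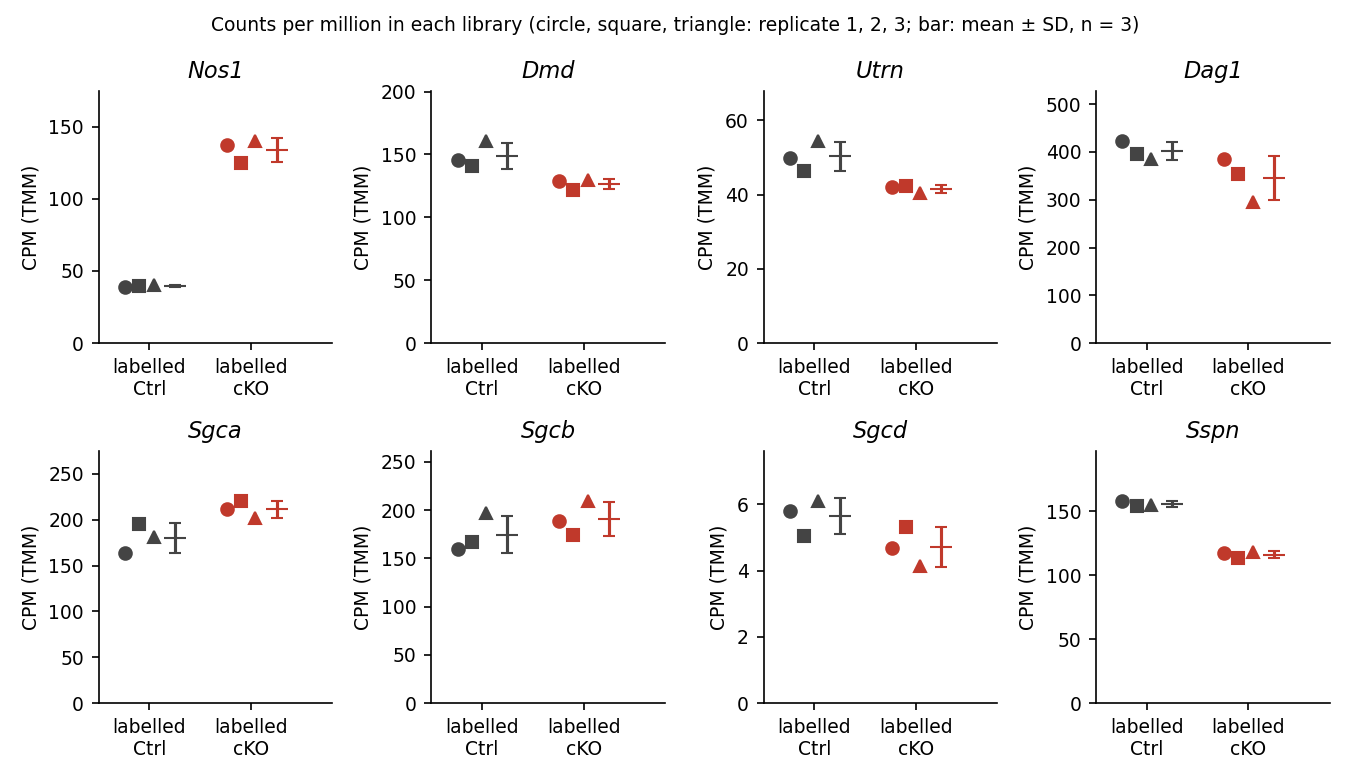
CPM with TMM factors (vertical axis, linear and starting at 0) of the 8 members in each library, with the mean and SD of the 3 libraries of a group beside the points. Nos1 sits near 40 CPM in the Ctrl-labelled libraries and above 120 CPM in the cKO-labelled ones, while the groups of Sgcb and Sgcd overlap.

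Nos1, the enzyme of the complex, had 39.1, 39.5 and 40.6 CPM in the Ctrl-labelled libraries and 137, 124 and 140.0 CPM in the cKO-labelled ones. Each library labelled cKO thus lay far above the closely spaced values labelled Ctrl. The mean was 39.7 ± 0.754 CPM (SD, n = 3) against 134 ± 8.22 CPM (SD, n = 3), a 3.37-fold difference. In edgeR's quasi-likelihood test across all genes the log2 fold change was 1.75 (SE 0.0766, 95% interval 1.57 to 1.93, adjusted p = 0.000228), the third smallest p of all genes tested. Nos1 passed in each of 13 alternative fits, with log2 fold changes of 1.49 to 1.79. In bulk muscle, a change in the share of fibers that express a gene and a change in RNA per fiber cannot be told apart.

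Dmd encodes dystrophin, which binds actin at one end and beta-dystroglycan at the other. It had 145, 141 and 161 CPM in the Ctrl-labelled libraries and 129, 122 and 129.7 CPM in the cKO-labelled ones. No value of one group reached the other, but the difference was small, with a log2 fold change of -0.23 (95% interval -0.42 to -0.04), and it did not pass (adjusted p = 0.0762). Dmd passed in 1 of 13 alternatives, when libraries were scaled by their total counts (-0.49, adjusted p = 0.0067), a scaling that moved the median of all genes by -0.25.

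Utrn encodes utrophin, the paralog of dystrophin. It had 49.9, 46.4 and 54.4 CPM in the Ctrl-labelled libraries and 42.0, 42.4 and 40.4 CPM in the cKO-labelled ones, where all 3 values were the lower ones. The log2 fold change was -0.27 (SE 0.0793, 95% interval -0.46 to -0.09), and its adjusted p of 0.0443 from edgeR's quasi-likelihood test lay just under the threshold. Utrn passed in 3 of 13 alternatives and in 0 of the 6 that left out 1 library, where the adjusted p ranged from 0.0519 to 0.121.

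Dag1 encodes both dystroglycan subunits, the laminin receptor of the complex. It had 423, 396 and 386 CPM in the Ctrl-labelled libraries and 386, 354 and 295 CPM in the cKO-labelled ones. The groups met at 386 CPM and the values labelled cKO were widely spread, and the log2 fold change of -0.22 (95% interval -0.49 to 0.05) did not pass (adjusted p = 0.205). Dag1 passed in 1 of 13 alternatives, with scaling by total counts (-0.48, adjusted p = 0.0238 in edgeR), which moved the median of all genes by -0.25.

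Among the sarcoglycans, which stabilise dystroglycan at the membrane, Sgca (alpha) had 163, 196 and 181 CPM in the Ctrl-labelled libraries and 212, 220.3 and 202 CPM in the cKO-labelled ones. Sgcb (beta) had 159.9, 167 and 197 CPM in the former and 189, 174 and 209 CPM in the latter. Sgcd (delta) was scarce at 5.80, 5.04 and 6.10 CPM in the Ctrl-labelled libraries and 4.68, 5.32 and 4.14 CPM in the cKO-labelled ones. Values of Sgca were separated between the groups, while those of Sgcb and Sgcd overlapped. Log2 fold changes were 0.23 for Sgca (95% interval 0.01 to 0.45, adjusted p = 0.11), 0.13 for Sgcb (-0.13 to 0.39, adjusted p = 0.431) and -0.26 for Sgcd (-0.60 to 0.08, adjusted p = 0.229), and 0 of the 3 passed. The sign of Sgca and of Sgcb turned with scaling by total counts, to -0.02 and -0.13, and Sgcd moved to -0.51 (adjusted p = 0.0568 in edgeR). That scaling moved the median of all genes by -0.25. Relative to the median of all genes, Sgca lay at 0.25, Sgcb at 0.14 and Sgcd at -0.24 under both scalings.

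Sspn encodes sarcospan, a tetraspan-like membrane protein bound to the sarcoglycans. It had 158, 154 and 155 CPM in the Ctrl-labelled libraries and 117, 113 and 118 CPM in the cKO-labelled ones. Values within each group lay close together and the groups stood apart, with means of 156 ± 2.20 and 116 ± 2.63 CPM (SD, n = 3 each). Sspn was lower by 0.42 on the log2 scale (SE 0.0677, 95% interval -0.58 to -0.26, adjusted p = 0.00728 by edgeR's quasi-likelihood test), which is 1.34-fold lower in the cKO-labelled libraries, and it passed in each of the 13 alternatives (-0.68 to -0.41).

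**Figure D2:**
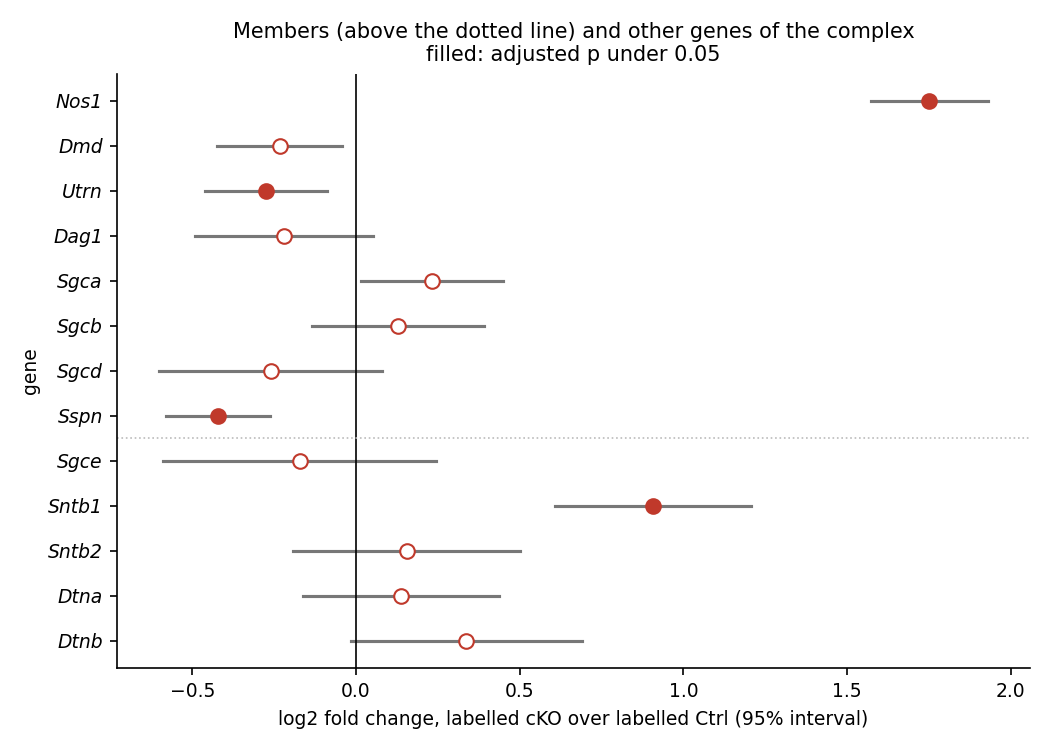
Log2 fold change, libraries labelled cKO over those labelled Ctrl (horizontal axis, linear), with the 95% interval from edgeR, for the 8 members and for 5 further genes of the complex below the dotted line; filled points passed an adjusted p of 0.05. Nos1 lies at 1.75, Sspn at -0.42 and Utrn at -0.27, and Sntb1 at 0.91 is the one of them that passed.

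Ratios between members within a library do not depend on how libraries are scaled. Nos1 had 0.269, 0.281 and 0.253 counts for each count of Dmd in the Ctrl-labelled libraries and 1.07, 1.02 and 1.08 in the cKO-labelled ones. Nos1 counts were thus well below the Dmd counts in the former and about equal to them in the latter, a 3.95-fold difference in the ratio. Relative to Dmd, the sarcoglycans Sgca and Sgcb were also higher in each library labelled cKO. The Sgca ratio was 1.12, 1.39 and 1.13 against 1.65, 1.80 and 1.56, and the Sgcb ratio was 1.10, 1.19 and 1.22 against 1.47, 1.43 and 1.62, the libraries labelled Ctrl being given first.

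The Sspn ratio was 1.09, 1.09 and 0.964 in the Ctrl-labelled libraries and 0.911, 0.927 and 0.911 in the cKO-labelled ones, lower in all 3 by a small margin. Those 4 ratios did not overlap between the groups, and each gave p = 0.1 in the exact two-sided permutation test, the smallest possible for 3 against 3 (p = 0.175 after Benjamini-Hochberg adjustment over the 7 ratios). The ratios of Utrn (0.311 to 0.347 over all 6 libraries), Dag1 (2.27 to 3.00) and Sgcd (0.0319 to 0.0436) overlapped between the groups, and their exact permutation p lay between 0.6 and 1. Their mean log2 ratios differed by -0.04 for Utrn, 0.0035 for Dag1 and -0.03 for Sgcd, cKO-labelled minus Ctrl-labelled, which does not show that they are equal.

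**Figure D3:**
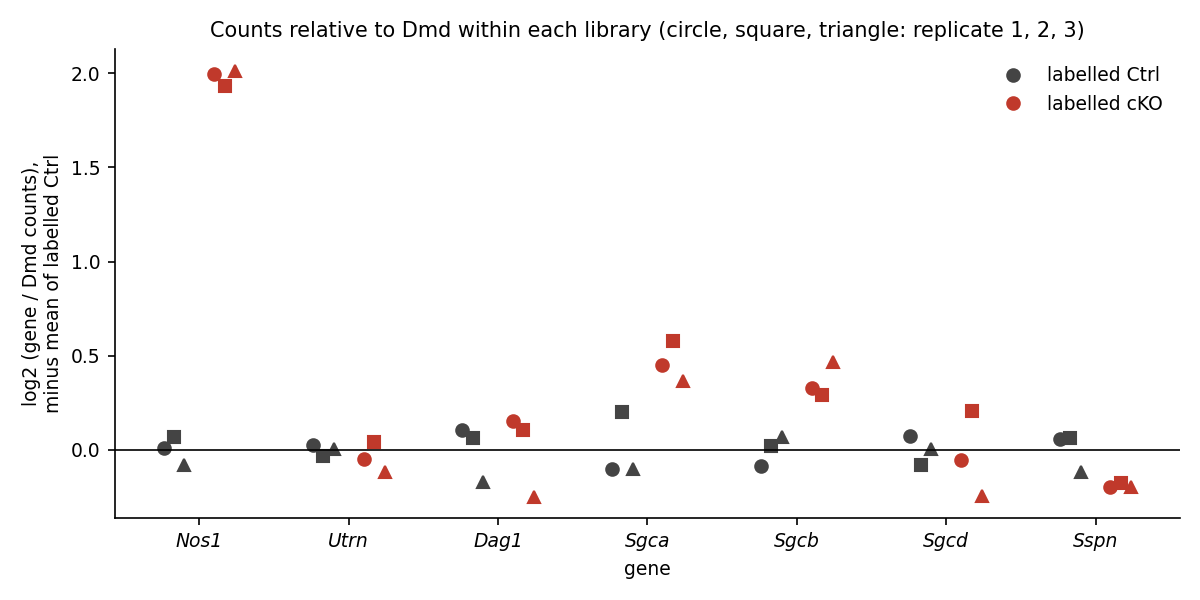
Log2 ratio of each member's counts to the Dmd counts of the same library, minus the mean of the libraries labelled Ctrl (vertical axis, linear), with 1 point per library. Nos1 is about 2 log2 units higher in the cKO-labelled libraries, Sgca and Sgcb lie above and Sspn below the libraries labelled Ctrl, and Utrn, Dag1 and Sgcd overlap.

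Levels of different genes were compared as CPM per kilobase of all exon bases in the annotation. In the libraries labelled Ctrl the order was Sgca (104 ± 9.33, SD, n = 3), Dag1 (63.2 ± 2.98), Sgcb (43.1 ± 4.82), Sspn (31.1 ± 0.440), Dmd (6.26 ± 0.437), Nos1 (3.56 ± 0.068), Utrn (2.94 ± 0.234) and Sgcd (0.684 ± 0.0658). Values of neighbors in that order did not overlap. Transcripts of the membrane-spanning partners were thus several-fold more abundant per length than Dmd, apart from Sgcd. In the libraries labelled cKO, Nos1 was at 12.0 ± 0.738 CPM per kilobase, above Dmd at 5.33 ± 0.172. These values depend on the length used. With the transcript of the longest coding sequence, Nos1 was at 8.66 and Dmd at 9.99 CPM per kilobase in the Ctrl-labelled libraries, and Nos1 at 29.2 and Dmd at 8.50 in the cKO-labelled ones.

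The other genes of the complex were further sarcoglycans, the syntrophins, which anchor Nos1 and channels, and the dystrobrevins, relatives of dystrophin that bind it. Of these 10 genes 7 were tested, 1 was higher and 0 were lower in the cKO-labelled libraries. Their median log2 fold change was 0.15 (-0.10 with scaling by total counts). For this and the lists below, the shares over all genes tested were 12.6% higher and 11.8% lower. Without Ctrl replicate 1, Ctrl replicate 2, cKO replicate 1 or cKO replicate 3, calls over all genes also fell. They were 766 to 896 higher and 788 to 947 lower, in place of 1786 and 1668. Sntb1, encoding beta1-syntrophin, was scarce at 2.86, 2.75 and 3.17 CPM in the Ctrl-labelled libraries and stood at 5.62, 5.27 and 5.59 CPM in the cKO-labelled ones. The latter were all higher, by 1.88-fold (log2 fold change 0.91, SE 0.128, adjusted p = 0.00497 in edgeR).

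The others named here did not pass. Sgce, a relative of alpha-sarcoglycan found outside muscle as well, was at 6.75 to 10.5 CPM over the 6 libraries (-0.17, adjusted p = 0.514). Sntb2, encoding beta2-syntrophin, was at 4.38 to 5.89 CPM (0.15, adjusted p = 0.476), Dtna, encoding alpha-dystrobrevin, at 94.7 to 137 CPM (0.14, adjusted p = 0.465) and Dtnb, encoding beta-dystrobrevin, at 2.20 to 3.25 CPM (0.34, adjusted p = 0.144). Sgcz, Sntg1 and Sntg2 had too few counts to be tested, none above 0.386 CPM in a library.

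**Figure D4:**
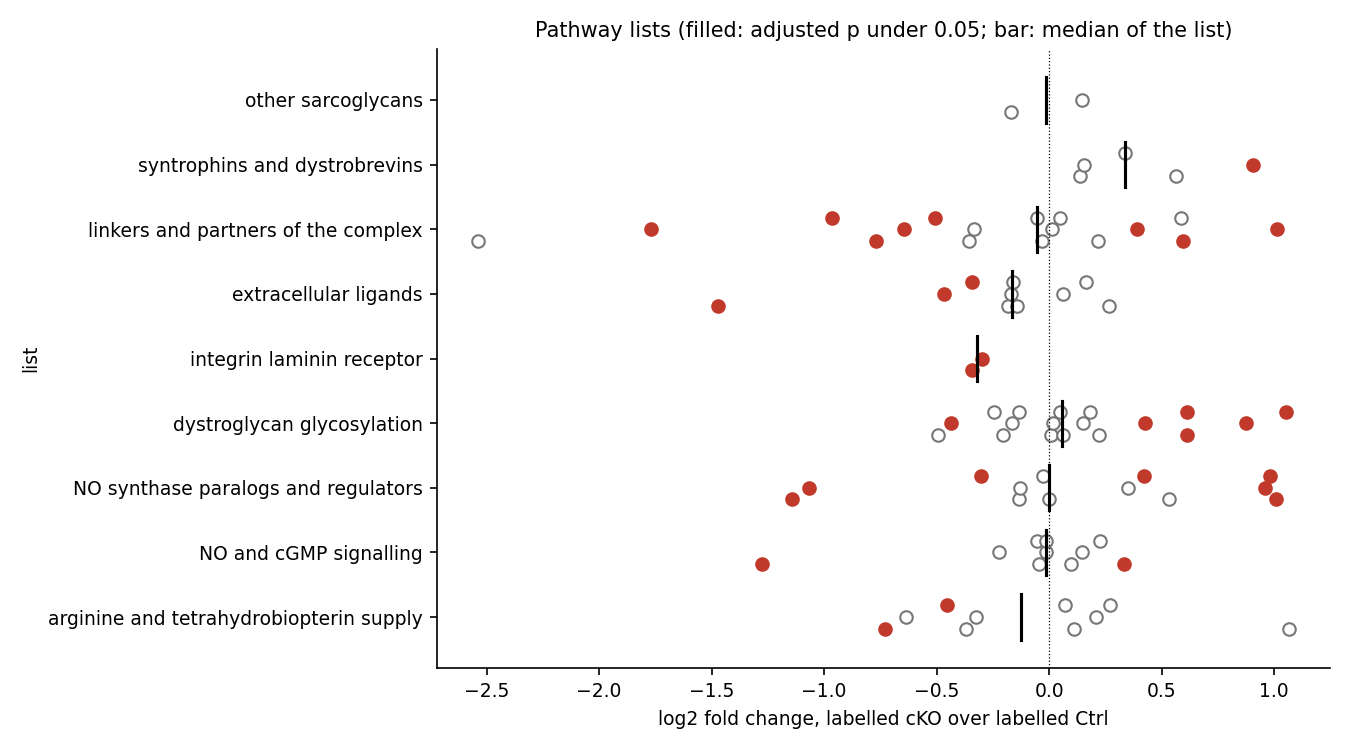
Log2 fold change, libraries labelled cKO over those labelled Ctrl (horizontal axis, linear), of each tested gene of 9 lists around the members; filled points passed an adjusted p of 0.05 and the black bar is the median of the list. Most lists hold genes on both sides of 0, both integrin subunits lie below it and the 5 syntrophins and dystrobrevins above it.

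Among 17 linkers and partners of the complex, 3 were higher and 5 lower in the cKO-labelled libraries, with a median log2 fold change of -0.05. These counts were 2 and 8 with total counts, 2 and 3 without cKO replicate 3, 1 and 4 without Ctrl replicate 2, and 1 and 5 with the replicate block. The 3 higher genes were Synm, encoding the intermediate filament protein synemin, Scn4a, the muscle sodium channel, and Aqp4, a water channel held at the sarcolemma by syntrophin. Synm had 777, 963 and 1299 CPM in the Ctrl-labelled libraries and 2277, 1699.8 and 2145 CPM in the cKO-labelled ones (log2 fold change 1.01). Scn4a was higher by 0.60 and Aqp4 by 0.39 (25.6 to 26.6 CPM against 32.0 to 37.2 CPM). Synm did not pass without Ctrl replicate 2, cKO replicate 1 or cKO replicate 3, and Aqp4 did not without Ctrl replicate 1 or Ctrl replicate 2. The 3 lower genes of smallest p were Trim72, a membrane repair protein (-0.97), Fhl1, a LIM-domain protein of striated muscle (-1.77), and Mast2, a kinase that binds syntrophin (-0.64). Cav3, encoding the caveolin that binds beta-dystroglycan and inhibits Nos1, was at 41.9 to 47.1 CPM in the Ctrl-labelled libraries and 42.0 to 43.7 CPM in the cKO-labelled ones (log2 fold change -0.03, 95% interval -0.20 to 0.14, adjusted p = 0.779). Outside the cell, 0 of 10 ligands of dystroglycan and their matrix partners were higher and 3 were lower: Bgn, encoding biglycan (-1.47), Lamb2, a laminin beta chain (-0.47), and Agrn, encoding agrin (-0.34). Without cKO replicate 3 only Bgn passed, Agrn was also lost without Ctrl replicate 1 and Lamb2 without Ctrl replicate 2, and with total counts 7 were lower. Lama2, the alpha chain of the main laminin of muscle, had overlapping groups (51.4 to 58.0 against 53.5 to 59.7 CPM, 0.06, adjusted p = 0.595).

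Both subunits of the integrin that binds laminin beside the complex passed as lower, though not when some libraries were left out. Itga7 was at 157, 174 and 157 CPM in the Ctrl-labelled libraries and 138, 128 and 119 CPM in the cKO-labelled ones (-0.34, adjusted p = 0.0306 in edgeR), and Itgb1 at 291 to 319 CPM against 232 to 259 CPM (-0.30, adjusted p = 0.0432). Neither passed without Ctrl replicate 1, Ctrl replicate 2 or cKO replicate 3 or with the replicate block, and Itgb1 also did not pass without Ctrl replicate 3 or cKO replicate 1 or with no filter. Of 18 genes listed for the glycosylation of dystroglycan, 5 were higher, 1 was lower and 12 did not pass, with a median of 0.06. With total counts 3 were higher and 5 lower, with a median of -0.20, and leaving out Ctrl replicate 1, Ctrl replicate 2, cKO replicate 1 or cKO replicate 3 left 2 higher, without Dpm1. The 3 higher genes of smallest p were Tmem5 (Rxylt1), a ribitol xylosyltransferase (0.88), Pomgnt2, an O-mannose N-acetylglucosaminyltransferase (0.61), and Dpm1, a subunit of dolichol-phosphate-mannose synthase that was counted at only 1.06 to 2.91 CPM (1.05). The lower gene was Large, which extends the laminin-binding glycan of dystroglycan. It was at 52.4, 48.4 and 45.8 CPM against 34.6, 37.9 and 36.0 CPM (-0.43, adjusted p = 0.0102 in edgeR). Exons of Dpm1 overlap those of another gene on the same strand over 895 of 7489 bases, so its counts may be shared.

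The other nitric oxide synthases were counted as well. Nos2, the inducible enzyme, was at 2.83, 4.01 and 4.38 CPM in the Ctrl-labelled libraries and 4.83, 6.10 and 5.29 CPM in the cKO-labelled ones, with groups apart but no pass (0.53, adjusted p = 0.0844). Nos3, the enzyme of endothelium, was lower at 24.2, 24.8 and 27.4 CPM against 19.4, 21.8 and 20.8 CPM (-0.30, adjusted p = 0.0431 in edgeR), a call that was lost in 5 of the 6 fits without 1 library and held without cKO replicate 2. Endothelial markers gave 1 lower gene of 7 (2 with total counts or without cKO replicate 2), with summed CPM of 402 to 415 against 364 to 396, and their part in the value of Nos3 was not tested. Exons of Nos3 overlap the antisense gene Gm15587 over 1040 of 4132 bases and Atg9b, on the opposite strand, over 294 bases.

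With the synthases, 13 paralogs and regulators were tested, of which 4 were higher and 3 lower (2 and 5 with total counts, where Dynll2 was lost, and 2 and 2 without cKO replicate 3, where Dynll2 and Nos3 were lost). Calm3, which encodes calmodulin, the activator of the enzyme, was higher by 0.96 on the log2 scale, and Dynll2, a dynein light chain, by 0.42. Dynll1, the light chain that binds Nos1 near its N-terminus, had 52.9, 40.0 and 58.1 CPM in the Ctrl-labelled libraries and 22.6, 28.9 and 20.7 CPM in the cKO-labelled ones (-1.07, adjusted p = 0.00745 in edgeR). The chaperone Hsp90aa1 was lower as well (-1.14). Calm3, Dynll1 and Hsp90aa1 have closely similar copies in the genome, and how reads that match several places were counted is not given in the sources used here.

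Downstream of nitric oxide, 1 of 10 genes of cyclic GMP signalling was higher and 1 lower. They were Adh5, encoding the reductase of S-nitrosoglutathione (0.33, adjusted p = 0.0233 in edgeR), and Prkg2, encoding a cGMP-dependent kinase, at 4.44, 6.13 and 4.32 CPM against 2.06, 2.29 and 1.82 CPM (-1.27). Of 14 genes that supply arginine and tetrahydrobiopterin, the substrate and a cofactor of the enzyme, 10 were tested, 0 were higher and 2 were lower (1 and 3 without cKO replicate 2). Gch1, encoding the enzyme of the first step of tetrahydrobiopterin synthesis, had 5.69, 5.65 and 5.96 CPM in the Ctrl-labelled libraries and 3.64, 3.79 and 3.02 CPM in the cKO-labelled ones (-0.73, adjusted p = 0.0111 in edgeR), and Asl, encoding argininosuccinate lyase, was lower by a log2 fold change of -0.46. Adh5 did not pass without Ctrl replicate 1, cKO replicate 1 or cKO replicate 3, and Asl did not without Ctrl replicate 1, Ctrl replicate 2, cKO replicate 2 or cKO replicate 3.

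Fiber-type markers differed between the same groups as Nos1. Of 9 markers of fast type IIb fibers 8 were higher in the cKO-labelled libraries, with summed CPM of 58052 to 97397 against 153005 to 195212. That count was 2 without Ctrl replicate 2, 3 without cKO replicate 1, 1 without cKO replicate 3 and 3 with the replicate block, and Myh4 was lost in each of these. Of 10 slow-fiber markers 5 were lower and 0 higher, with sums of 9068 to 15533 against 553 to 4133 CPM. Without 1 library, 1 (Ctrl replicate 1), 2 (Ctrl replicate 2 or cKO replicate 1), 3 (Ctrl replicate 3), 9 (cKO replicate 2) or 8 (cKO replicate 3) of them were lower, and with total counts 8 were. Both markers of type IIa and IIx fibers, Myh2 (-1.23) and Myh1 (-0.93), were lower, but neither passed without Ctrl replicate 1, Ctrl replicate 2 or cKO replicate 1, Myh1 did not without cKO replicate 2 or with the replicate block, and Myh2 did not without cKO replicate 3. Myh4, the myosin of type IIb fibers, had 15349, 24649 and 36565 CPM in the Ctrl-labelled libraries and 80134, 57352 and 72862 CPM in the cKO-labelled ones. It was thus higher in each of the latter, by 2.75-fold, beside 3.37-fold for Nos1.

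Within a group, Myh4 and Myh7 spread more than Nos1. Highest over lowest among the libraries labelled Ctrl was 2.38-fold for Myh4 and 2.13-fold for Myh7, the slow myosin, but 1.04-fold for Nos1, and among those labelled cKO it was 1.40-fold, 12.9-fold and 1.12-fold. For each 1000 counts of Myh4, Nos1 had 2.55, 1.604 and 1.11 counts in the Ctrl-labelled libraries and 1.71, 2.17 and 1.92 counts in the cKO-labelled ones, a ratio chosen after the values were seen. The groups overlapped in that ratio, whereas per 1000 counts of Myh2 they did not (3.86 to 7.32 against 23.5 to 56.5). Nor did they per 1000 counts of Myh1 (3.43 to 5.49 against 20.6 to 31.2) or Myh7 (10.6 to 22.9 against 128 to 1859). Myh2, Myh1 and Myh7 were themselves lower in each cKO-labelled library, where Nos1 was higher, so these ratios could not overlap. The part of fiber type in the difference in Nos1 was not tested.

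**Figure D5:**
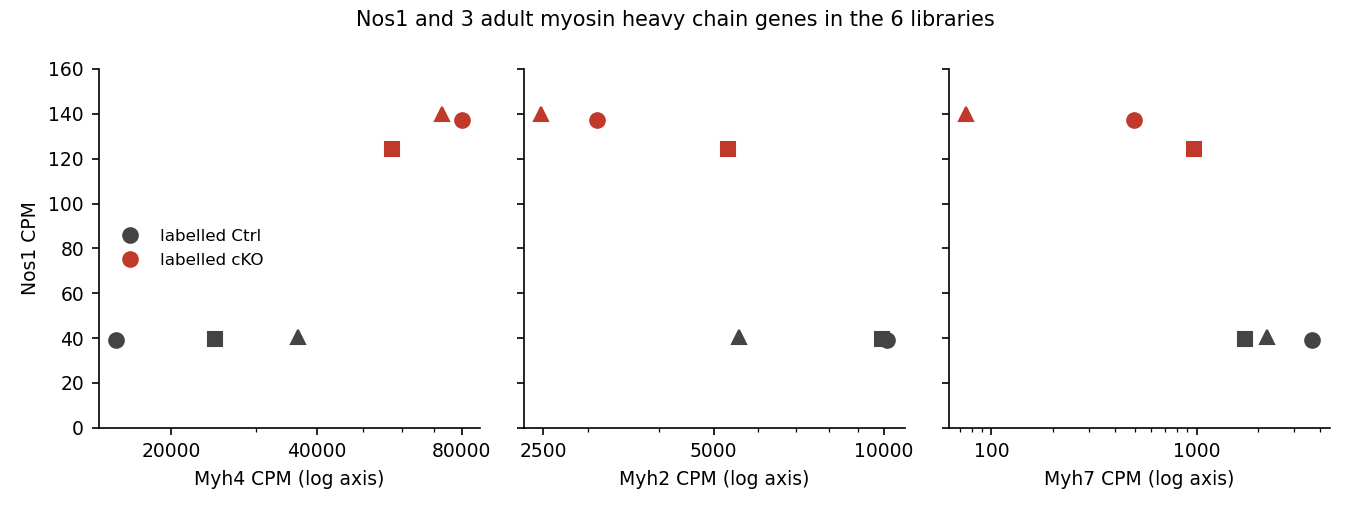
CPM of Nos1 (vertical axis, linear and starting at 0) against CPM of Myh4, Myh2 and Myh7 (horizontal axes, log scale), with 1 point per library and circle, square and triangle for replicates 1 to 3. The libraries labelled Ctrl lie between 39.1 and 40.6 CPM of Nos1 over a 2.38-fold range of Myh4, and those labelled cKO lie higher in Nos1 and Myh4 and lower in Myh2 and Myh7.

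Other cell types of the muscle gave lower or overlapping markers in the cKO-labelled libraries. Immune markers were lower in 4 of 6 genes (summed CPM 125 to 144 against 55.4 to 82.4), smooth muscle and pericyte markers in 3 of 6 (416 to 431 against 330.4 to 356), fibro-adipogenic progenitor markers in 3 of 6 (1034 to 1236 against 675 to 1221) and Schwann cell markers in 1 of 6 (156 to 227 against 89.4 to 145). Without Ctrl replicate 2 or cKO replicate 3, 1 immune marker passed as lower, and 2 did without Ctrl replicate 3 or cKO replicate 1. Smooth muscle and pericyte markers that passed numbered 1 without Ctrl replicate 1 or Ctrl replicate 2. With total counts, 6 of 6 immune, 6 of 6 smooth muscle and pericyte, 4 of 6 progenitor and 5 of 6 Schwann cell markers were lower. Markers of the neuromuscular junction, where Utrn is concentrated, did not pass in any of 7 genes (112 to 141 against 92.4 to 119; with total counts 4 were lower, and without cKO replicate 2 there were 2), nor did those of satellite cells, adipocytes or tendon, each of 4 genes. Among markers of developing fibers, Myh3 was lower (-3.83) and Myh8 higher (1.20), the latter lost without Ctrl replicate 1, Ctrl replicate 2 or cKO replicate 3. Utrn and Sspn, which also have transcripts outside the fiber, were lower beside these markers, whose part in those results was not tested.

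The genes of mean CPM of at least 10 whose log2 CPM followed Nos1 most closely over the 6 libraries were Pon3, a paraoxonase (Pearson's r = 0.999), Golph3, a Golgi phosphoprotein (0.999), Slc48a1, a heme transporter (0.999), Htatsf1, a splicing cofactor (0.999), and Dnajc21, a J-domain protein (0.998). They came from 8058 genes ranked, and with 6 libraries in 2 separate groups such values mainly reflect genes that differ between the groups with little spread within them. Golph3, for example, was at 75.1 to 75.6 CPM in the Ctrl-labelled libraries and 102 to 105 CPM in the cKO-labelled ones, a smaller difference than that of Nos1.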

How the data were processed

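RNA of GP muscle was sequenced as paired ends in 6 libraries, 3 per group. According to the methods of the study, the authors used FastQC 0.11.8 to check reads, Trimmomatic 0.39 to trim them, HISAT2 2.1.0 to map them onto mm10 and featureCounts 1.6.2 to assign them to genes. The deposited values are raw counts per gene, whole numbers without normalization. The annotation, the strand setting and the treatment of reads with several matches are not given in the sources used here. Groups were taken from the sample labels, although the targeted gene is low in the libraries labelled Ctrl.

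Counts were tested in edgeR 4.0.16 under R 4.3.3 (TMM, filterByExpr, glmQLFit and glmQLFTest, no covariate, Benjamini-Hochberg adjustment over the 14180 genes tested), with SEs derived from the F statistic and 95% intervals. Passing means an adjusted p under 0.05. The number that also exceeded 2-fold is given beside it, as the study used both limits. For CPM and for ratios to Dmd, the test was an exact two-sided permutation of the labels. The scripts were tested on simulated counts. Replicates of a group differed by more than sampling noise (chi-square per degree of freedom 29.5 to 101), so each counts as 1 sample. Gene positions and lengths come from GENCODE M21, in which 95.6% of listed genes were found by symbol, and promoter windows from RefSeq, found for all 8 members.

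Alternatives were median-of-ratios factors, total counts, no filter, a filter of 10 counts in every library, a robust fit, DESeq2 1.42.0, a replicate block and leaving out each library. The members and the gene lists were chosen by known role, with earlier results of these data known. Genes named are the members, other sarcoglycans, syntrophins and dystrobrevins, in each other list the 3 passing genes of smallest p in each direction, genes chosen by role (Nos2, Nos3, Cav3, Aqp4, Itga7, Lama2 and Large), myosin markers, and the 5 genes most like Nos1. Some genes of the lists are counted but not reported by name here.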

Additional observations from a re-analysis of the deposited data

How the results depend on the processing

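Nos1 and Sspn passed, in the same direction, under all 13 alternatives, and no other list gene that passed in the main comparison changed sign in any. With total counts, 673 genes were higher and 4074 lower in the libraries labelled cKO, in place of 1786 and 1668. Members passing as lower numbered 4 with total counts (Dmd at -0.49 and Dag1 at -0.48 being added) and 1 with median-of-ratios factors, no filter, DESeq2 and the replicate block, where Utrn was lost at -0.27, -0.26, -0.26 and -0.27. Sgca and Sgcb reversed with total counts (-0.020 and -0.13 in the fit, -0.020 and -0.13 in CPM), a scaling that moved the median of all genes by -0.25. Total counts also lost Aqp4, B3galnt2, Pomk, Dynll2, Nostrin and Adh5 among the pathway lists, and Neb and Ryr1 among the markers. DESeq2 called 2 other complex genes higher in place of 1. Per kilobase of the transcript with the longest coding sequence, levels in the libraries labelled Ctrl were 8.66 for Nos1, 9.99 for Dmd, 4.06 for Utrn, 3.49 for Sgcd, 70.9 for Dag1 and 35.1 for Sspn, in the same order.

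Leaving out 1 library at a time gave 766 to 1777 genes higher and 788 to 1808 lower, 1 member lower each time, 1 to 2 other complex genes higher, and log2 fold changes of -0.33 to -0.21 for Utrn. Differences in the log2 ratio to Dmd ranged from -0.15 to 0.075 for Sgcd and from -0.081 to 0.13 for Dag1, so neither kept its sign. Counts fell most without Ctrl replicate 1 (766 higher, 809 lower) and cKO replicate 3 (772 and 788), and also without Ctrl replicate 2 (873 and 947) and cKO replicate 1 (896 and 893); the second complex gene passed without cKO replicate 2. Fewer samples enter these fits. Otherwise the cause was not tested.

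Replicate numbers are shared between groups but did not pair the samples: deviations of same-numbered libraries correlated at 0.08, -0.22 and -0.002. With the replicate block 927 genes were higher and 972 lower, Nos1 and Sspn passed, Utrn did not, and Itga7, Itgb1, Nos3, Hsp90aa1, Aqp4, Scn4a, Adh5 and Asl were among the list genes that no longer passed. Members had 166 to 16549 counts per library, and 3 libraries per group limit the precision.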
